A study of Homo sapiens with 6 samples.

Results

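The urokinase system and the serine proteases held at the cell surface were followed in Huh7, an established line of human hepatoma cells. The set was 9 genes of the 58735 in the table: the plasminogen activators PLAU and PLAT, the urokinase receptor PLAUR, the plasminogen receptor PLGRKT, the serpin SERPINE2, the membrane proteases ST14 and HPN, and the Kunitz inhibitors SPINT1 and SPINT2. They were chosen by gene name with the changes between the hairpin groups already known, so those changes are given below as a description with no p-value. The groups were 3 libraries of Huh7 cells with a short hairpin RNA against ITGB5, the integrin beta 5 subunit (shITGB5), and 3 libraries of Huh7 cells with a control hairpin (shcontrol). The cells of both groups were grown alike in RPMI-1640 with fetal bovine serum. The sources used here do not give the hairpin sequences, the number of hairpins or clones behind a group, or whether its libraries came from separate cultures, so spreads and p-values measure only the difference between these libraries, which may be technical.

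Urokinase cuts plasminogen into plasmin, a broad protease that dissolves fibrin and degrades matrix, and its receptor holds it at the cell surface. Serpins such as SERPINE2 trap the activators covalently. Matriptase (ST14) and hepsin (HPN) are membrane-anchored serine proteases of epithelia, hepsin being named for its abundance in hepatocytes, and both are restrained by the Kunitz inhibitors SPINT1 and SPINT2, also called HAI-1 and HAI-2. In liver the same proteases and inhibitors control the activation of hepatocyte growth factor.

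The promoter windows of the 4 genes that were called changed and have an entry in the RefSeq table (GRCh38.p14) are printed 5′ to 3′ so that their base composition and motifs can be compared. Each runs from 250 bases before a RefSeq start site to 50 after it, and where a gene had more than 1 window the one nearest to the start of its GENCODE principal transcript is shown, which for SERPINE2 and HPN lies 679 and 1215 bases downstream of that start. Capitals mark the GC box GGGCGG and the AP-1 letters TGANTCA, on either strand. The windows are chr10:73910882-73911181 (plus strand) for PLAU, chr15:40843798-40844097 (plus) for SPINT1, chr2:224038591-224038890 (minus) for SERPINE2 and chr19:35041471-35041770 (plus) for HPN.
PLAU: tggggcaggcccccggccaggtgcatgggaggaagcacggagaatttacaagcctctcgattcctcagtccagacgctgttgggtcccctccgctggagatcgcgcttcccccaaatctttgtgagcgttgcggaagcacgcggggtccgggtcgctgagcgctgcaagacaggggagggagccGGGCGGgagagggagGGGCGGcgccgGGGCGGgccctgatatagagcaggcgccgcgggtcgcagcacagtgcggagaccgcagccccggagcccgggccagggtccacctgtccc
SPINT1: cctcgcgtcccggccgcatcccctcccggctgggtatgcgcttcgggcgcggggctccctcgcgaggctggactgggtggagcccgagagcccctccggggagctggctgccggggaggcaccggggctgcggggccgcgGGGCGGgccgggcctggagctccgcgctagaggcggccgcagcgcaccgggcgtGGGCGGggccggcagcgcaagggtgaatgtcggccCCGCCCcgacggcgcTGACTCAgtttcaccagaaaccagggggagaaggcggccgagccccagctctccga
SERPINE2: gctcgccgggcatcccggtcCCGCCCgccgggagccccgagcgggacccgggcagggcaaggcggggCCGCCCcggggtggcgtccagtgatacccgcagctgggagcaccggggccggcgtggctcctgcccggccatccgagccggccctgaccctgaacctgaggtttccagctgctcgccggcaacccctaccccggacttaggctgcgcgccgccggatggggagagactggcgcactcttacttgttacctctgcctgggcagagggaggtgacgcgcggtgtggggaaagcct
HPN: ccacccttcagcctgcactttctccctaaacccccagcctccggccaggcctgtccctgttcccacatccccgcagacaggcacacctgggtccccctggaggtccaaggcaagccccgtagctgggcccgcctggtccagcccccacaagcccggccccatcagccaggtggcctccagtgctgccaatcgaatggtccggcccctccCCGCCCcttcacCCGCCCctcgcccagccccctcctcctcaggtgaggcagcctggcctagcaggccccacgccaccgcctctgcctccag

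The G and C content of the windows shown was 70.0% for PLAU, 77.7% for SPINT1, 73.7% for SERPINE2 and 71.0% for HPN, beside a median of 64.7% over 15605 windows of tested protein-coding genes. Other windows of the same genes were at 48.7% (PLAU), 54.0% (SERPINE2) and 69.7% (SPINT1), and those of PLGRKT and PLAUR at 53.7% and 64.0%. The PLAU window held 3 GC boxes, the SPINT1 window 3, the SERPINE2 window 2 and the HPN window 2, and the other windows of PLAU and SPINT1 held 0. Over all 9 windows of these genes 6 held the motif, beside 64.4% of the windows of tested genes. The AP-1 letters occurred in the SPINT1 window, at position -6 from the start site, and in that of PLAUR, at position -186, but not in the PLAU window shown. Of the 9 windows, which belong to 6 genes of the set, 2 held the AP-1 letters, against 5.27% of all windows. The ETS letters CCGGAA were in 1 (PLGRKT), against 25.5%, and TATAAA in 0, against 6.55%. The shorter GGAA within CCGGAA was not searched, and the PLAU window shown holds it. None of the motifs marked overlapped another. A match says only that the letters are present in this window. ST14 and SPINT2 had no entry, and PLAT was left out of the sequence searches.

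The 3′ untranslated regions were searched for words that an earlier analysis of these libraries had found common among genes that fell (AGACCAA and GACCAAA) or rose (TCGGAGA and CGGAGAA). PLAT was not searched. None of the other 8 genes held any of the 4 words in its GENCODE 29 principal transcript, PLAU included. Over 13260 tested protein-coding genes, 15.8% held a word of the first pair and 3.36% a word of the second.

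Each library held 15777922 to 18011313 counts, and a count of 0 allows up to 0.167 to 0.190 CPM (counts relative to library size, normalized with TMM factors), for counting error only. The targeted gene ITGB5 (minus strand of chromosome 3, 124761948 to 124901418, ENSG00000082781) had 173.1, 181.0 and 174.3 CPM in the shITGB5 libraries and 204.7, 213.8 and 216.9 CPM in the shcontrol libraries. That was a fall of 16.8% (edgeR quasi-likelihood test, Benjamini-Hochberg adjusted p = 2.13e-09), with p = 0.1 in a two-sided exact permutation test, the smallest that 3 libraries against 3 allow. Mitochondrial transcripts took 3.24% to 3.29% of counts in shITGB5 libraries and 3.46% to 3.54% in shcontrol libraries. All 10 hepatoma markers, among them ALB, AFP and HNF4A, passed the low-count filter, and their sum was 8530 to 8720 CPM in shITGB5 and 7590 to 7770 CPM in shcontrol libraries. Of 7 fibroblast and stellate markers 5 passed, with a sum of 324 to 333 CPM in shITGB5 and 290 to 303 CPM in shcontrol libraries, mostly from COL1A2 and LUM, while DCN had at most 4 counts in a library. Of 7 blood and immune markers 2 passed, with 40.8 to 43.2 CPM in shITGB5 and 37.7 to 38.1 CPM in shcontrol libraries, almost all from CD14 and LYZ, while PTPRC had at most 4 counts. Of 6 endothelial markers 1 passed (4.73 to 5.69 CPM in shITGB5 and 3.61 to 5.82 CPM in shcontrol libraries), and KDR was at 0 throughout. The part of these shifts in the results below was not tested.

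Per kilobase of the deposited gene length, the inhibitor SPINT1 was the most abundant of the 9 genes, and SPINT2 and PLAT were barely detected. Whether this length matches the transcripts present was not tested. The order of different genes by FPKM and the size of the ratios between them depend on it. SPINT1 lay at 26.6 to 29.1 FPKM (CPM per kilobase of the gene length in the table) in shITGB5 libraries and 23.4 to 25.8 FPKM in shcontrol libraries. HPN followed at 13.1 to 14.2 FPKM in shITGB5 and 11.3 to 12.2 FPKM in shcontrol libraries. PLAU lay at 7.73 to 8.17 FPKM in shITGB5 and 11.7 to 13.0 FPKM in shcontrol libraries. HPN and PLAU were therefore apart in the shITGB5 libraries, whereas their ranges overlapped in the shcontrol libraries.

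PLGRKT (5.31 to 5.52 FPKM in shITGB5, 5.51 to 6.87 in shcontrol) and SERPINE2 (5.57 to 5.83 in shITGB5, 4.77 to 5.24 in shcontrol) came next and stood in opposite order in the 2 groups. ST14 lay at 3.45 to 3.78 FPKM in shITGB5 and 4.03 to 4.69 FPKM in shcontrol libraries. PLAUR lay at 1.44 to 1.77 FPKM in shITGB5 and 1.31 to 1.99 FPKM in shcontrol libraries, below ST14 in every library. PLAT and SPINT2 could not be ordered, since both stayed at or below 0.186 FPKM with overlapping ranges.

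**Figure D1:**
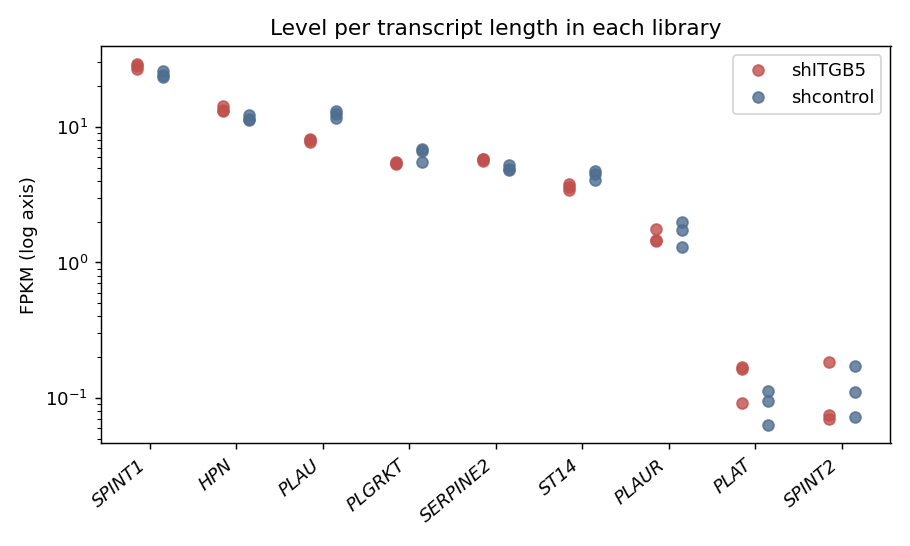
FPKM on a log axis for the 9 genes, with shITGB5 libraries (red) left of shcontrol libraries (blue) and 1 point per library, 3 per group. SPINT1 is highest at 23.4 to 29.1 FPKM and PLAT and SPINT2 lie at or below 0.186 FPKM, while PLAU drops below HPN in the shITGB5 libraries.

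Of the 9 genes, 8 passed the low-count filter, and in the fit over 16577 genes 3 of them were called higher (SPINT1, HPN and SERPINE2), 2 lower (PLAU and ST14) and 3 were not called (PLAUR, PLGRKT and PLAT), at an adjusted p under 0.05. Over all genes tested 15.1% were called, 8.31% higher and 6.74% lower. The 3 shITGB5 libraries all lay above the 3 shcontrol libraries for the same 3 genes that were called higher and all below for the same 2 called lower, against 14.7% and 13.8% of all genes tested. Since the genes were picked with these changes in view, nothing is read from the counts. Of the 5 calls only that of PLAU was kept with limma on log2(FPKM + 1) or log2(FPKM + 0.1), and that of ST14 was also lost with no low-count filter. The median log2 change of the 8 was 0.04, and that of all genes was 0.00. In bulk RNA, fewer cells with a transcript and less RNA per cell cannot be told apart.

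Among the plasminogen activators, urokinase had the clearest change of the set and was lower in every knockdown library. PLAU (ENSG00000122861, chromosome 10, 73909177 to 73917497, plus strand, GRCh38) had 425, 377 and 424 counts in the shITGB5 libraries and 670, 614 and 546 in the shcontrol libraries. On the CPM scale these were 23.7, 22.8 and 24.1 in shITGB5 and 38.4, 36.6 and 34.6 in shcontrol libraries. The groups did not overlap, and every shITGB5 library lay well below the lowest shcontrol library. The log2 change was -0.64 (SE 0.072, 95% interval -0.78 to -0.50), a change of -35.6%, and 317 of the 16577 genes tested had a lower log2 change. The coefficient of variation was 2.76% among shITGB5 and 5.27% among shcontrol libraries, where counting alone gives 4.95% in shITGB5 and 4.05% in shcontrol libraries.

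PLAT, the tissue-type activator best known from endothelium, was close to the detection limit. PLAT (ENSG00000104368) had 20, 10 and 19 counts in shITGB5 libraries and 13, 7 and 10 in shcontrol libraries. The groups overlapped, and its log2 change of 0.64 had an SE of 0.43, so its 95% interval ran from -0.21 to 1.48. No difference was detectable at this depth. Of the endothelial markers, PECAM1 had 62 to 93 counts a library, CLDN5 had 0 to 10, and CDH5, VWF, TEK and KDR had at most 3.

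The surface receptors of the system showed no called change. PLAUR (ENSG00000011422, chromosome 19, minus strand), the glycolipid-anchored receptor for urokinase, lay at 6.40, 7.87 and 6.53 CPM in shITGB5 and 7.74, 5.85 and 8.86 CPM in shcontrol libraries. Its groups overlapped widely, with a log2 change of -0.11 (SE 0.15, 95% interval -0.40 to 0.18), which became 0.02 without shcontrol replicate 3. PLGRKT (ENSG00000107020, chromosome 9, minus strand), which presents a C-terminal lysine that plasminogen binds, lay at 8.07, 7.93 and 8.24 CPM in shITGB5 and 9.92, 10.3 and 8.23 CPM in shcontrol libraries. Of the shcontrol libraries, 2 stood above all others, and the remaining one lay among the shITGB5 libraries. The PLGRKT log2 change was -0.23 (SE 0.13, 95% interval -0.48 to 0.02).

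SERPINE2, protease nexin-1, which inhibits thrombin and both plasminogen activators, was higher in the knockdown libraries. SERPINE2 (ENSG00000135919, chromosome 2, 223975112 to 224039319, minus strand) lay at 49.6, 51.9 and 51.7 CPM in shITGB5 and 46.6, 43.6 and 42.4 CPM in shcontrol libraries. The groups did not overlap, although the lowest shITGB5 library lay close to the highest shcontrol library. Its log2 change was 0.21 (SE 0.057), or 15.4% higher (95% interval 6.79% to 24.6%). It was no longer called without shcontrol replicate 3 (log2 change 0.18).

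**Figure D2:**
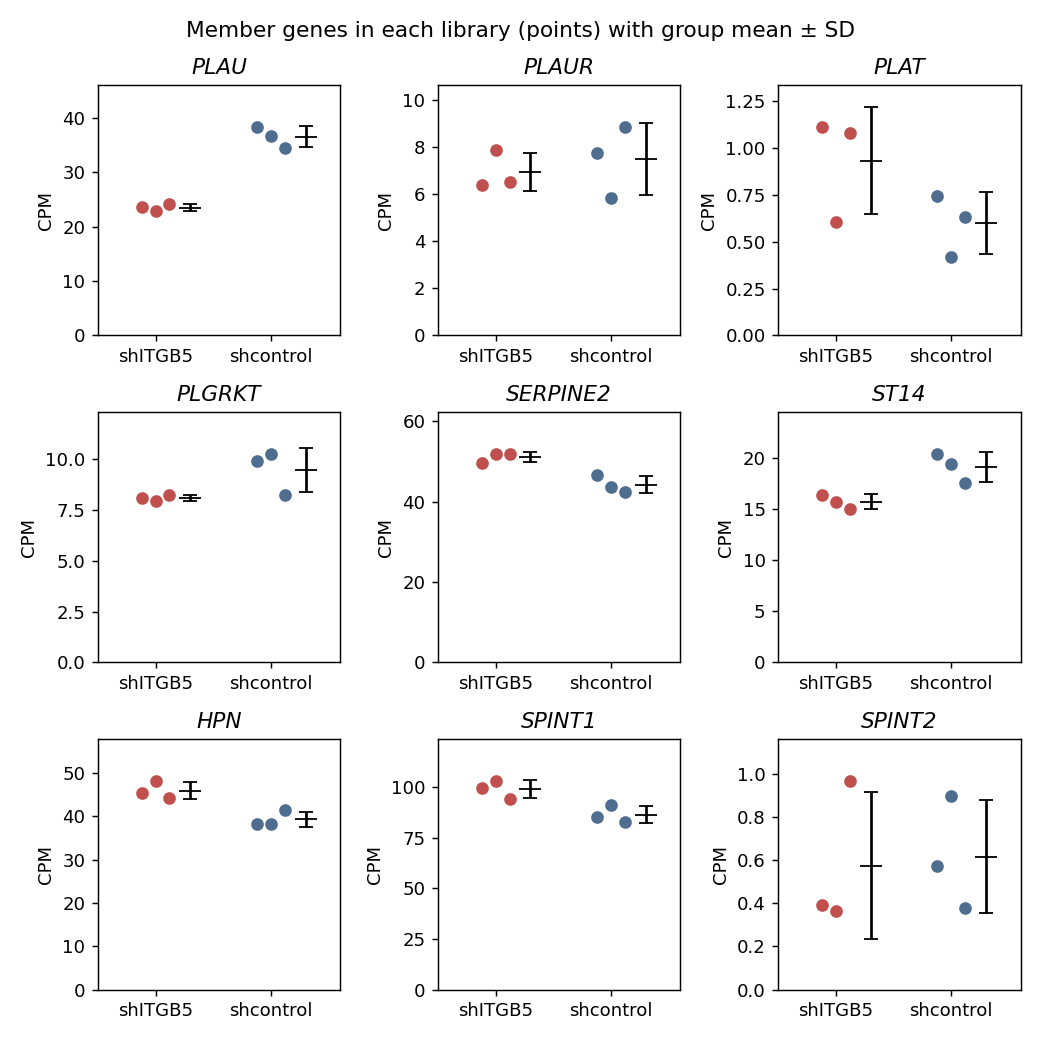
CPM of the 9 genes in each library, with shITGB5 (red) left of shcontrol (blue), 3 points per group, and the group mean ± SD in black beside them on axes that start at 0. PLAU and ST14 lie lower and SERPINE2, HPN and SPINT1 higher in all 3 shITGB5 libraries, and the other 4 genes overlap.

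The membrane proteases moved in opposite directions. HPN (ENSG00000105707, chromosome 19, 35040506 to 35066571, plus strand), hepsin, lay at 45.3, 48.1 and 44.2 CPM in shITGB5 and 38.1, 38.3 and 41.3 CPM in shcontrol libraries, with no overlap. Its log2 change was 0.23 (SE 0.061), or 16.9% higher (95% interval 7.66% to 26.9%). ST14 (ENSG00000149418, chromosome 11, 130159562 to 130210376, plus strand), matriptase, had 295, 260 and 264 counts in shITGB5 and 356, 326 and 277 counts in shcontrol libraries, with means of 15.7 ± 0.714 CPM in shITGB5 and 19.1 ± 1.46 CPM in shcontrol libraries (SD, n = 3 each) and no overlap in CPM. Its log2 change was -0.28 (SE 0.092), a change of -17.9% (95% interval -27.5% to -7.03%). HPN was no longer called without shITGB5 replicate 2 (log2 change 0.19), and ST14 without shITGB5 replicate 2 or 3 or shcontrol replicate 1 or 2 (log2 changes -0.29, -0.25, -0.24 and -0.28).

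Of the Kunitz inhibitors, the abundant SPINT1 was higher in the knockdown libraries and SPINT2 was too low to compare. SPINT1 (ENSG00000166145, chromosome 15, 40844018 to 40858207, plus strand) lay at 99.5, 103.0 and 94.3 CPM in shITGB5 and 85.3, 91.4 and 82.8 CPM in shcontrol libraries. The groups did not overlap, although the highest shcontrol library came close to the lowest shITGB5 library. Its log2 change was 0.19 (SE 0.044), or 14.3% higher (95% interval 7.78% to 21.3%), and the call held without any of the 6 libraries. SPINT2 (ENSG00000167642, chromosome 19, plus strand) had 7, 6 and 17 counts in shITGB5 libraries and 10, 15 and 6 in shcontrol libraries and did not pass the filter. PPP1R14A, which overlaps SPINT2 on the other strand, held 1243 counts over the 6 libraries against 61 for SPINT2, so even these counts are uncertain where the strand setting is not known.

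Other overlaps were small. Genes on the opposite strand had counts equal to 1.37% of those of PLAU (C10orf55) and 0.989% of those of HPN (HPN-AS1), and SPINT1-AS1 had 95 counts beside 9475 for SPINT1. SERPINE2, ST14 and PLAT overlapped no other gene in the table.

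Ratios of FPKM within a library do not depend on library scaling, although their size depends on the gene lengths used. They show how the components stood to each other. SERPINE2 per PLAU was 0.695, 0.754 and 0.712 in shITGB5 and 0.402, 0.395 and 0.407 in shcontrol libraries. This inhibitor-to-urokinase ratio was thus higher in every shITGB5 library. PLAU per PLAUR was 5.58, 4.38 and 5.57 in shITGB5 and 7.50, 9.47 and 5.89 in shcontrol libraries, with the closest pair of libraries nearly meeting.

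SPINT1 per ST14 was 7.44, 8.04 and 7.72 in shITGB5 and 5.13, 5.77 and 5.79 in shcontrol libraries. SPINT1 per HPN, in contrast, overlapped, at 2.09, 2.04 and 2.04 in shITGB5 and 2.13, 2.28 and 1.91 in shcontrol libraries. HPN per ST14 averaged 3.76 ± 0.194 in shITGB5 and 2.66 ± 0.332 in shcontrol libraries (SD, n = 3 each). These ratios rest on the same values as the changes above and add no independent evidence of them.

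**Figure D3:**
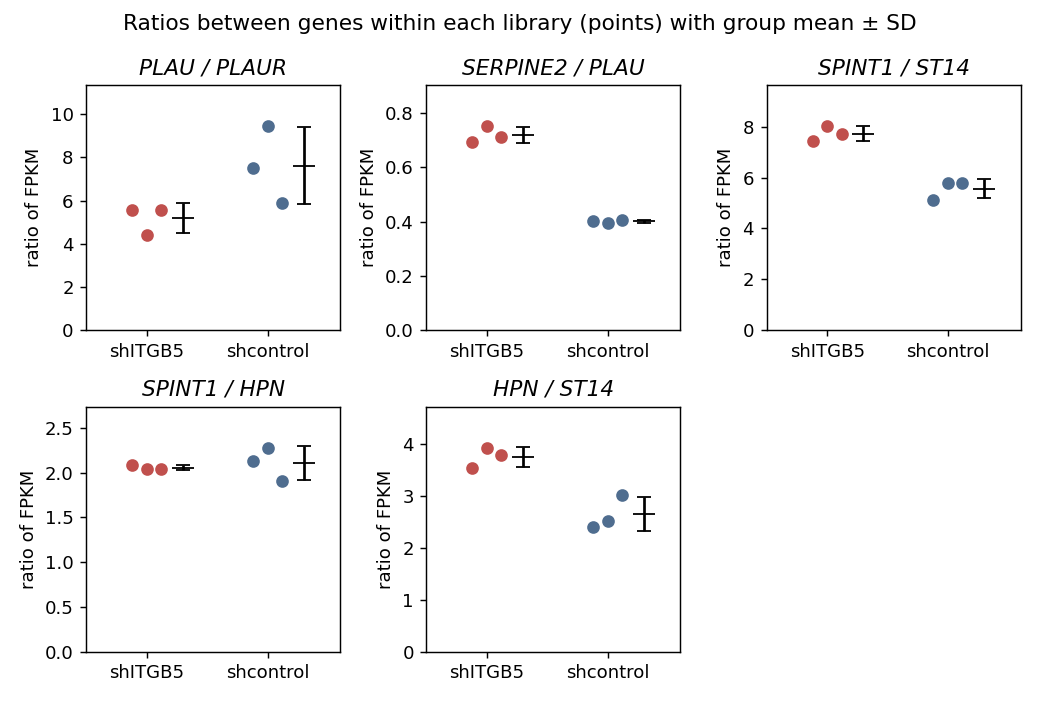
Ratio of FPKM between genes within each library, with shITGB5 (red) left of shcontrol (blue), 3 points per group, and the mean ± SD in black on axes that start at 0. SERPINE2 per PLAU is 0.695 to 0.754 in shITGB5 and 0.395 to 0.407 in shcontrol libraries, whereas SPINT1 per HPN overlaps between the groups.

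Genes were also ranked by how closely their profile over the 6 libraries followed that of PLAU, as the root mean square difference of log2 CPM from the shcontrol mean. Of 9728 protein-coding genes with a mean of at least 10 CPM, the nearest were MIGA1 (difference 0.047), BIRC3 (0.068), TNC (0.069), SUMF1 (0.069) and ARL6IP1 (0.073), with log2 changes of -0.60, -0.60, -0.66, -0.63 and -0.55. TNC encodes tenascin-C, a matrix glycoprotein, and BIRC3 an inhibitor of apoptosis. Each profile was taken from its shcontrol mean, so near genes must largely share the fall for which PLAU was picked. Their log2 changes therefore restate that choice, and nothing is read from them. Those nearest to PLAT, the gene of the set with the largest positive log2 change, were PTCHD4 (0.286), TMEM216 (0.292), PLEKHA6 (0.306), GPR158 (0.312) and APH1B (0.314). With 7 to 20 counts of PLAT a library, its profile is mostly counting noise, and nothing is read from these neighbours or their distances.

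The wider pathway was read from 7 lists of 122 genes, of which 98 passed the filter, 27 rose and 11 fell. ITGB5, the target of the hairpin itself, is among the 11. Over all genes tested 8.31% rose and 6.74% fell. The median log2 change of the 98 listed genes was 0.04. Of the listed genes 6 had no count in any library, including PLG (plasminogen itself), MMP2 and SERPINB2, so at most 0.190 CPM could have been missed in a library. HGF had 2 counts and MMP9 had 3 over all 6 libraries together.

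Among plasminogen, its inhibitors and its binding sites, 18 of 20 genes were tested, 3 rose and 3 fell, with a median log2 change of -0.02. TNFRSF11B rose (0.17, edgeR adjusted p = 0.0115). It encodes the decoy receptor osteoprotegerin, which is counted here but is neither an inhibitor nor a binding site of plasminogen. The clearance receptor LRP1 rose too (0.15), named for its part in removing activator-inhibitor complexes and outside the naming rule. ANXA2, which with S100A10 docks plasminogen, fell (log2 change -0.19, edgeR adjusted p = 1.60e-09), whereas S100A10 (-0.03) and ENO1 (-0.02) were not called. CKAP4 (-0.50, edgeR adjusted p = 2.95e-20) and the histone gene HIST1H2BK (-0.30, edgeR adjusted p = 0.00051) fell as well, products known mainly from the endoplasmic reticulum and from chromatin. TNFRSF11B missed the threshold without shITGB5 replicate 2, shcontrol replicate 1 or shcontrol replicate 2 (edgeR adjusted p = 0.127, 0.0593 and 0.0633).

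Of 15 tested genes listed for partners of the urokinase receptor and matrix ligands, 5 rose and 3 fell, with a median of 0.04. The rises include LYPD6 and LYPD6B, which share a domain family with PLAUR and are not among its partners or ligands. LYPD6, a small protein of the same Ly6 and uPAR domain family as PLAUR, rose to 12.1 ± 0.355 FPKM in shITGB5, against 7.55 ± 0.447 FPKM in shcontrol libraries (SD, n = 3 each), a log2 change of 0.68 (edgeR adjusted p = 9.05e-15), and LYPD6B rose by 0.17. The heparan sulfate carrier SDC1 rose to 23.9 ± 0.576 FPKM in shITGB5, against 17.3 ± 0.505 FPKM in shcontrol libraries (SD, n = 3 each), a log2 change of 0.46 (edgeR adjusted p = 5.44e-12). CAV1, the caveolar coat protein, fell (-0.17, edgeR adjusted p = 0.0114), beside ITGB5 itself. The remaining calls were small and outside the naming rule. ITGAV (0.08, edgeR adjusted p = 0.0225) and IGF2R (0.15, edgeR adjusted p = 1.86e-05) rose, and EGFR fell (-0.09, edgeR adjusted p = 0.00272). VTN, the matrix protein that PLAUR binds, was not called (0.05, edgeR adjusted p = 0.318). LYPD6B missed the threshold without shITGB5 replicate 1 or 2 or shcontrol replicate 2 (edgeR adjusted p = 0.0576, 0.0676 and 0.251).

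Of 16 other proteases listed as membrane-bound, 8 were tested and 1 rose, PRSS23 (log2 change 0.12, edgeR adjusted p = 0.0241), whose product is secreted. FZD4 lies over PRSS23 on the opposite strand with 67.2% as many counts, and PRSS23 missed the threshold without any library except shITGB5 replicate 1 (edgeR adjusted p = 0.0505 to 0.124). TMPRSS6, which controls hepcidin in hepatocytes, lay at 2.67 FPKM in shITGB5 and 2.46 FPKM in shcontrol libraries (edgeR adjusted p = 0.622), and PRSS8, an activation partner of matriptase, had 2 counts in all.

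Other inhibitors moved both ways: of 13 tested, 2 rose and 2 fell, with a median of -0.06. SPINK1, a Kazal-type trypsin inhibitor and so neither Kunitz nor serpin, rose to 207.6 ± 5.66 FPKM in shITGB5, against 172.4 ± 7.33 FPKM in shcontrol libraries (SD, n = 3 each), a log2 change of 0.27 (edgeR adjusted p = 2.00e-10). SERPIND1, heparin cofactor II, rose (0.23, edgeR adjusted p = 0.000342) but is overlapped by PI4KA with 174% as many counts. SERPINH1, a collagen chaperone (-0.15, edgeR adjusted p = 0.000996), and APLP2, which carries a Kunitz domain (-0.08, edgeR adjusted p = 0.00831), fell.

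Of 14 tested substrates, 4 rose and 2 fell, with a median of 0.07. The growth factor PDGFC (0.28, edgeR adjusted p = 0.000871), the protease-activated receptors F2R (0.25, edgeR adjusted p = 0.037) and F2RL1 (0.18, edgeR adjusted p = 0.032) and the adhesion protein EPCAM (0.11, edgeR adjusted p = 0.0188) rose. Fibronectin (FN1), a matrix glycoprotein outside the naming rule, fell (-0.09, edgeR adjusted p = 0.000131). MET, the receptor for hepatocyte growth factor, was not called (0.06, edgeR adjusted p = 0.246). With 1 library left out, F2R missed the threshold in every case except without shITGB5 replicate 3 (edgeR adjusted p = 0.0619 to 0.163), and also with DESeq2 (adjusted p = 0.0539). F2RL1 missed it without shITGB5 replicate 2 or 3 or shcontrol replicate 2 or 3 (0.0945 to 0.192), and EPCAM without shITGB5 replicate 1 or 3 or shcontrol replicate 1 or 3 (0.0511 to 0.122).

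Of 11 tested matrix metalloproteases and inhibitors, 5 rose and 1 fell, with a median of 0.11. The membrane-type proteases MMP14 (150.6 ± 2.67 FPKM in shITGB5 and 135.4 ± 1.98 FPKM in shcontrol libraries, SD, n = 3 each, log2 change 0.15, edgeR adjusted p = 8.22e-07) and MMP15 (0.16, edgeR adjusted p = 0.000957) rose. MMP11 (0.25, edgeR adjusted p = 0.0193) and the inhibitor TIMP3 (0.21, edgeR adjusted p = 0.0164) rose too, and MMP16 fell (-0.27, edgeR adjusted p = 0.0472). CHCHD10 lies over MMP11 on the opposite strand with 85.5% as many counts. MMP11 missed the threshold without shITGB5 replicate 3 or shcontrol replicate 1 (edgeR adjusted p = 0.11 and 0.138), TIMP3 without shITGB5 replicate 1 or shcontrol replicate 1 (0.103 and 0.0708), and MMP16 without shITGB5 replicate 1 or 3 or shcontrol replicate 2 or 3 (0.131 to 0.219) or with DESeq2 (0.0796).

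Transcription factors of the AP-1, ETS and NF-kB families, which bind the PLAU promoter and enhancer in human cells, included 7 that rose and 0 that fell of 19 tested, with a median of 0.14. The shares over all genes tested were 8.31% higher and 6.74% lower. This list, like the others, was chosen with earlier results of these data known, and no test over it was run. ATF3 rose to 16.5 ± 0.438 FPKM in shITGB5, against 12.2 ± 0.246 FPKM in shcontrol libraries (SD, n = 3 each), a log2 change of 0.43 (edgeR adjusted p = 1.07e-09). JUND (0.38, edgeR adjusted p = 6.61e-14), ETV5 (0.38, edgeR adjusted p = 0.000879), JUN (0.36, edgeR adjusted p = 8.39e-12) and ETV4 (0.27, edgeR adjusted p = 0.00236) rose as well. RELA (0.08), NFKB1 (-0.07) and REL (-0.13) were not called. Nor were the AP-1 genes FOS (0.84), FOSB (0.66), FOSL1 (0.02), FOSL2 (-0.08) and ATF2 (-0.03), or the ETS genes ETS1 (-0.11) and ELK1 (0.14). FOS, FOSB and FOSL1 had group means of at most 0.903 FPKM. DHX8 overlaps ETV4 with 164% as many counts.

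**Figure D4:**
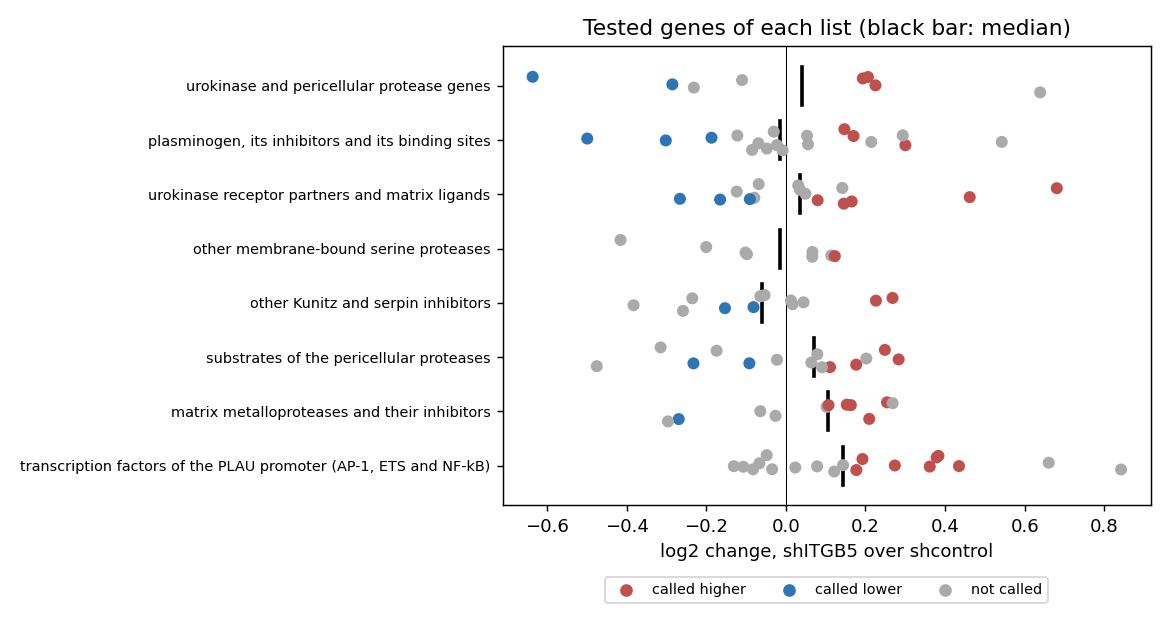
Log2 change, shITGB5 over shcontrol, for every tested gene of the urokinase and pericellular protease set (top) and of the 7 lists, coloured by the call at an adjusted p under 0.05, with the median as a black bar. PLAU lies farthest to the left at -0.64, and the list of transcription factors has 7 genes called higher and 0 called lower. Of all genes tested, 8.31% were called higher and 6.74% lower.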

How the data were processed

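RNA-seq gene counts of 3 shITGB5 and 3 shcontrol libraries of Huh7 cells were used; per the labels' protocols, a strand-marking library kit was used on total RNA. The values are raw counts per gene as the authors deposited them: 100% were whole numbers and column totals differed, although the table is named for FPKM. Column codes S and NC were read as the ITGB5 and the control hairpin. The sources used here do not give the aligner, counter or strand setting. Position equalled that in GENCODE 29 (GRCh38) for 58724 of 58735 genes.

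Genes were kept by filterByExpr, scaled by TMM (factors 0.998 to 1.00) and tested with edgeR 4.0.16 (R 4.3.3), quasi-likelihood, group only, two-sided, Benjamini-Hochberg adjusted over 16577 genes, with a threshold of 0.05. The fit was tested on simulated data: a first draw exceeded the limit set for unchanged genes among the calls, and the mean of several draws met a limit set after that was seen. SE is the log2 change divided by the root of F, and 95% intervals are normal. The FPKM values printed were computed here as TMM-scaled CPM per kilobase of the gene length in the table. For the limma fits FPKM was scaled by library totals without TMM factors. Those fits kept the 25307 genes with a mean of at least 0.1 FPKM in either group. Libraries of a group differed by more than counting noise (chi-square per degree of freedom 2.00 to 2.33), so no 2 columns were one library deposited again; repeat libraries of one culture are not told apart by this. The 9 genes, the lists and the tests were chosen with earlier results of these data known. Named were the 9 genes, ITGB5, up to 5 called genes per list by size of change (or the 2 most abundant where none was called) and the 5 profiles nearest to the members with the lowest and the highest log2 change; other genes were named after their values were seen, and 2 listed genes are counted but not reported by name here. Alternatives were DESeq2 1.42.0, RLE factors, library totals, 2 other filters, the replicate block, limma 3.58.1 on log2(FPKM + 1) and log2(FPKM + 0.1), and leaving out each library. Sequences came from RefSeq (GRCh38.p14) and GENCODE 29.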

Additional observations from a re-analysis of the deposited data

How the results depend on the processing

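PLAU kept its direction and its call under all 14 alternatives run, and so did ITGB5. All 14 reuse the same libraries, with whose changes known the 9 genes were picked. A kept call is therefore no independent evidence of a change. The 2495 genes called (1377 higher, 1118 lower) became 918 (503, 415) with limma on log2(FPKM + 1) and 973 (532, 441) on log2(FPKM + 0.1), and 1939 to 2183 (1079 to 1180, 860 to 1003) with 1 library left out. Of the 5 member calls (3 higher, 2 lower), 1 (0 higher, 1 lower) was left in both limma fits, where SPINT1, HPN, SERPINE2 and ST14 missed the threshold; the cause was not tested. With no low-count filter, 1 member was called lower, since ST14 missed the threshold, and with 1 library left out there were 3 to 5 calls (2 to 3 higher, 1 to 2 lower). The 38 listed genes called (27 higher, 11 lower) became 19 (13, 6) and 21 (15, 6) in the limma fits and 31 to 34 (21 to 23, 10 to 12) with 1 library left out. PLAUR, never called, ranged from -0.26 to 0.0231 on the log2 scale with 1 library left out and changed sign without shcontrol replicate 3. Libraries with the same number did not deviate together (correlations 0.021, -0.010 and -0.018), and the replicate block gave 2303 calls over all genes, 5 among the 9 genes and 37 among the listed genes, MMP16 being lost. By CPM instead of FPKM, SERPINE2 ranked above HPN and PLAU. By CPM, 5 neighbouring pairs were apart in the same order in both groups, the same number as by FPKM. PLGRKT and SERPINE2, apart by FPKM but in opposite order in the 2 groups, are not counted. With 6 to 20 counts a library, no difference was detectable at this depth for PLAT or SPINT2.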
